A study of Saccharomyces cerevisiae with 12 samples.

Results

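This comparison set 2 alleles of SDC1 side by side in Saccharomyces cerevisiae: Dpy30_KO, a deletion of the DPY30 motif of Sdc1, and Sdc1_mut, a point mutant of Sdc1. The question was how far the alleles were equivalent at the level of RNA. Both carry an altered SDC1 in strain MGD353-13D and keep JHD2. Dpy30_KO and Sdc1_mut had 2 libraries each, 4 of the 12 libraries of the series. The groups used beside them were Sdc1_mut_Jhd2_KO (the point mutant with JHD2 deleted), Sdc1_KO (SDC1 deleted), Jhd2_KO (JHD2 deleted) and the wild type, WT, also with 2 libraries each. Cells grew in YPD, a rich medium, to mid-log phase, and total RNA was depleted of ribosomal RNA before directional library preparation. Of 7126 identifiers, the 7112 whose fragment counts were not marked as too high for quantification entered, and 6361 had enough fragments to be tested. The labels give neither the borders of the motif deletion nor the position of the point mutation, and they do not say how the alleles were built or if a group's libraries are from separate cultures. The p-values therefore measure the spread between these libraries, which may be technical.

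Set1 is the only histone H3 lysine 4 methyltransferase of budding yeast and works in a complex, COMPASS, with Bre2, Swd1, Swd2, Swd3, Spp1, Shg1 and Sdc1. Sdc1 is the yeast counterpart of metazoan DPY30. Its DPY30 motif is a short helical dimerization fold near the end of the protein through which it holds Bre2. Jhd2 is a JmjC demethylase that removes the mark Set1 writes.

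The stretches of DNA at the SDC1 locus are shown because the clearest differences between the alleles lay there. They are from the RefSeq assembly R64 of the reference strain S288C, not from the mutant strains. SDC1 (YDR469W) lies at chrIV:1399015-1399542 on the plus strand, with a coding region of 528 bases. TLG1 (YDR468C) lies at chrIV:1398026-1398700 on the minus strand, so that both genes are transcribed away from a shared space of 314 bases, chrIV:1398701-1399014. UGO1 (YDR470C) lies beyond SDC1 at chrIV:1399706-1401214 on the minus strand. The first line gives the middle of the shared space, chrIV:1398761-1398954, read on the plus strand, with 60 bases left out at each end. The second gives the last 180 coding bases of SDC1, chrIV:1399363-1399542, with the stop codon in capitals.
TLG1-SDC1 space: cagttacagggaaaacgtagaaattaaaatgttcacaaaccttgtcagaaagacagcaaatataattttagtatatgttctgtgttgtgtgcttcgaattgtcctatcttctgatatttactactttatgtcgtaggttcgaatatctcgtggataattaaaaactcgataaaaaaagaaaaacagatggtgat
SDC1 end: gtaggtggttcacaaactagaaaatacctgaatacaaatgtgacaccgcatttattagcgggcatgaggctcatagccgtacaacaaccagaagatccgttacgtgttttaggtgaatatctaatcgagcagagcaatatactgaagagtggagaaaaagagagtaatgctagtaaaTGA

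The deposited tables hold 14180681 and 11442273 fragments in the Dpy30_KO libraries, against 10807158 and 14637999 in the Sdc1_mut libraries, within the range of 8652878 to 26041718 over all 12. RNA encoded in the mitochondrial genome was close to absent in both alleles. It gave 17 and 8 fragments in Dpy30_KO, against 9 and 2 fragments in Sdc1_mut, and 9 and 16 in Sdc1_mut_Jhd2_KO. It gave 53234 and 48224 fragments in Sdc1_KO, 29213 and 37870 in Jhd2_KO, and 35130 and 62790 in WT. Dpy30_KO and Sdc1_mut were alike in this respect. Every difference of either allele from WT or Sdc1_KO, and every difference of Sdc1_mut_Jhd2_KO from Jhd2_KO, goes along with that of mitochondrial RNA and cannot be told apart from it here. In RNA from whole cultures, fewer cells with mitochondrial RNA and less of it per cell cannot be told apart. The Sdc1_KO libraries stand apart from each other, with an SD over genes of 0.368 between their log2 CPM, a library's fragments scaled to a common depth. The SD was 0.143 to 0.178 in the 5 other groups. Results are also given without the Sdc1_KO libraries where they matter, a setting chosen after the data were seen.

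SDC1 was the gene that separated the alleles. Its RNA was lower in Dpy30_KO, the motif deletion, than in Sdc1_mut, the point mutant, and WT lay between them. SDC1 had 14.5 and 14.3 CPM in Dpy30_KO, against 38.5 and 39.2 CPM in Sdc1_mut. It had 46.0 and 44.8 CPM in Sdc1_mut_Jhd2_KO, 0 and 0 in Sdc1_KO, 21.2 and 24.2 CPM in Jhd2_KO, and 24.3 and 25.5 CPM in WT. The Dpy30_KO and Sdc1_mut libraries did not overlap, and both Sdc1_KO libraries lacked the RNA that their label says was deleted. The log2 fold change of Dpy30_KO minus Sdc1_mut was -1.43 ± 0.12 (SE, n = 2 each, adjusted p = 0.000466 by edgeR's quasi-likelihood test with Benjamini-Hochberg adjustment), that is 2.69-fold lower, with a 95% interval of -1.69 to -1.17.

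Against WT, SDC1 RNA fell in Dpy30_KO, with a log2 fold change of -0.79 ± 0.12 (adjusted p = 0.0002), and rose in Sdc1_mut, with one of 0.64 ± 0.11 (adjusted p = 0.00054, edgeR for both). The WT libraries are shared by these contrasts. Fragments cannot come from a stretch of the gene that a strain lacks, and the counts were not scaled to the length that the deletion leaves. How much of the SDC1 value in Dpy30_KO this accounts for was not tested.

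The neighbours of SDC1 were looked at next. TLG1, which encodes a SNARE protein of the endosome and Golgi, had 79.1 and 77.3 CPM in Dpy30_KO, against 55.2 and 48.9 CPM in Sdc1_mut. It had 56.1 and 63.1 CPM in Sdc1_mut_Jhd2_KO, 44.9 and 41.6 CPM in Sdc1_KO, 81.3 and 79.0 CPM in Jhd2_KO, and 80.4 and 84.2 CPM in WT. The Dpy30_KO libraries thus lay near WT and Jhd2_KO, while the 6 libraries with the point mutation or no SDC1 lay below them all. Relative to WT, TLG1 had a log2 fold change of -0.07 ± 0.09 in Dpy30_KO (adjusted p = 0.54), and it fell in Sdc1_mut, with one of -0.66 ± 0.10 (adjusted p = 0.00012, edgeR). The direct difference of Dpy30_KO minus Sdc1_mut was 0.59 ± 0.10 with an interval of 0.38 to 0.80, and missed the threshold (adjusted p = 0.118, edgeR). It passed in the 4 libraries alone (adjusted p = 0.0293, edgeR) and by DESeq2 (adjusted p = 0.00963). It also passed with the Sdc1_KO libraries left out (adjusted p = 0.00569, edgeR), a setting chosen after the data were seen.

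UGO1, which encodes a mitochondrial outer membrane protein needed for mitochondrial fusion, had 30.6 and 30.3 CPM in Dpy30_KO, against 36.6 and 37.5 CPM in Sdc1_mut and 52.5 and 52.4 CPM in WT. Both alleles lay below WT. UGO1 fell relative to WT, with a log2 fold change of -0.78 ± 0.11 in Dpy30_KO (adjusted p = 0.0001) and of -0.50 ± 0.11 in Sdc1_mut (adjusted p = 0.0022, edgeR). The difference of Dpy30_KO minus Sdc1_mut was -0.28 ± 0.12 (adjusted p = 0.706).

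**Figure D1:**
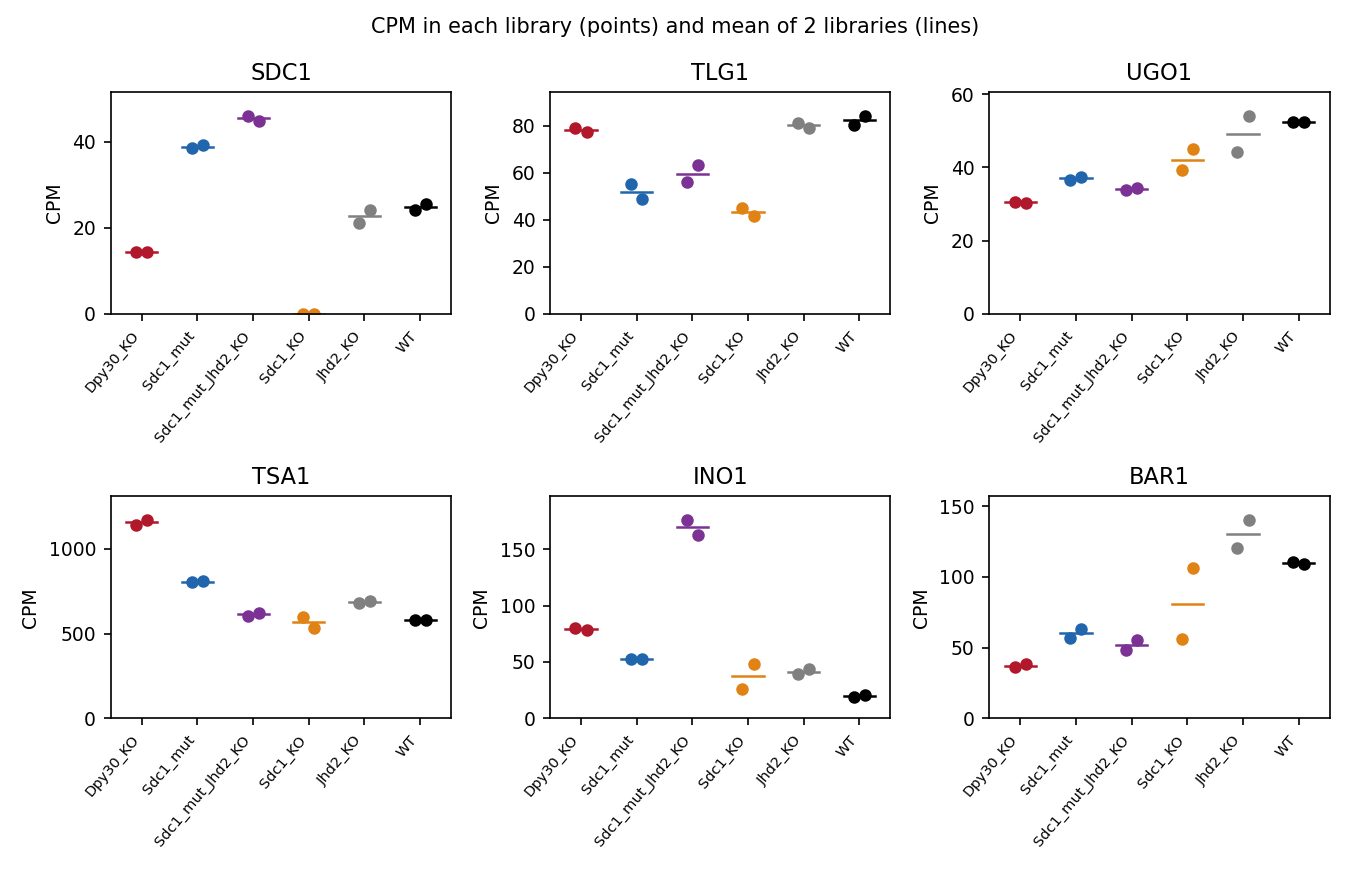
CPM of 6 genes in each library (points, 2 per group) with the group mean (lines), groups along the horizontal axis and CPM from 0 on the vertical axis. SDC1 is at 14.3 to 14.5 CPM in Dpy30_KO and 38.5 to 39.2 CPM in Sdc1_mut, and TLG1 is near its WT level in Dpy30_KO alone of the 4 SDC1-altered groups.

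Across the transcriptome the alleles were close. SDC1 was the 1 gene called of 6361 (0.0157%) at an adjusted p under 0.05 in the fit of all 12 libraries. The count depended on the fit. It was 22 of 6353 (0.346%) without the Sdc1_KO libraries, 17 of 6241 (0.272%) in the 4 libraries alone and 14 of 6308 (0.222%) in the 6 libraries low in mitochondrial RNA. With the replicate number as a block, the 4 libraries alone gave 792 of 6241, in a fit that leaves very few degrees of freedom. The settings without Sdc1_KO and with 6 libraries were chosen after the data were seen. Over all 12 libraries, 437 genes had an unadjusted p under 0.05 (6.87%), 186 of them above 0 (2.92%) and 251 below 0 (3.95%). A p over the threshold does not show likeness, so the 95% interval of each fold change was read directly. For 4784 genes (75.2%) the whole interval lay within 1.5-fold either way, and for 5823 (91.5%) within 2-fold. For 1574 genes the interval reached past 1.5-fold without lying wholly beyond it, and 3 genes, SDC1, YFR056C and YLL066C, had it wholly beyond. Over all genes the median log2 difference was -0.01, its median size without sign 0.11 and the median standard error 0.13.

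How much likeness could be shown depended on a gene's CPM, which is not scaled to gene length. Of the 178 nuclear genes with a mean under 1 CPM in the 4 libraries, 0 had an interval within 1.5-fold, and of the 425 from 1 to 5 CPM 9 did (2.12%). The share was 50.1% (487 of 972) from 5 to 20 CPM, 89.7% (2515 of 2805) from 20 to 100 CPM, and 90.5% (1773 of 1960) at 100 CPM or more. For genes under 5 CPM likeness within 1.5-fold could therefore mostly not be shown at this depth. The median half-width of the interval was 2.79-fold under 1 CPM and 1.72-fold from 1 to 5 CPM. Differences near 1.5-fold went uncalled above 5 CPM too in the fit of all 12 libraries, as for TLG1. There were 47 nuclear genes with a fold change of 2 or more, and 2 of these had a mean of at least 5 CPM, SDC1 and COS8.

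**Figure D2:**
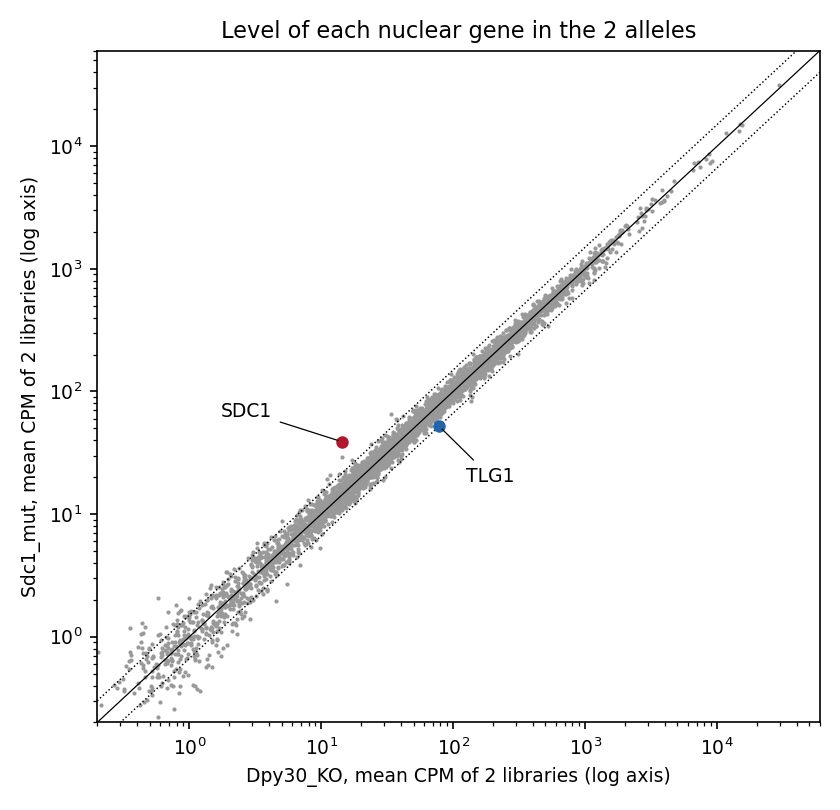
Mean CPM of each of 6324 nuclear genes with at least 0.2 CPM in Dpy30_KO (horizontal log axis) against Sdc1_mut (vertical log axis), each the mean of 2 libraries. The solid line marks equal levels and the dotted lines 1.5-fold either way, and SDC1, at a mean of 14.4 CPM in Dpy30_KO and 38.8 CPM in Sdc1_mut, lies farthest from the line among genes above 5 CPM.

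Pairs of libraries gave the same picture without a model. Over 4970 nuclear genes with a mean log2 CPM of at least 4, the SD of the log2 difference between libraries was 0.168 within Dpy30_KO and 0.143 within Sdc1_mut. Between a Dpy30_KO and an Sdc1_mut library it was 0.174 to 0.202 over the 4 pairs, a little above the spread within either group. Between Dpy30_KO and Sdc1_KO it was 0.461 to 0.516, and between Sdc1_mut and Sdc1_KO 0.426 to 0.490. Between Dpy30_KO and WT it was 0.607 to 0.663, and between Sdc1_mut and WT 0.617 to 0.664. These last 4 sets share the Sdc1_KO or WT libraries, and all of them go along with the difference in mitochondrial RNA.

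**Figure D3:**
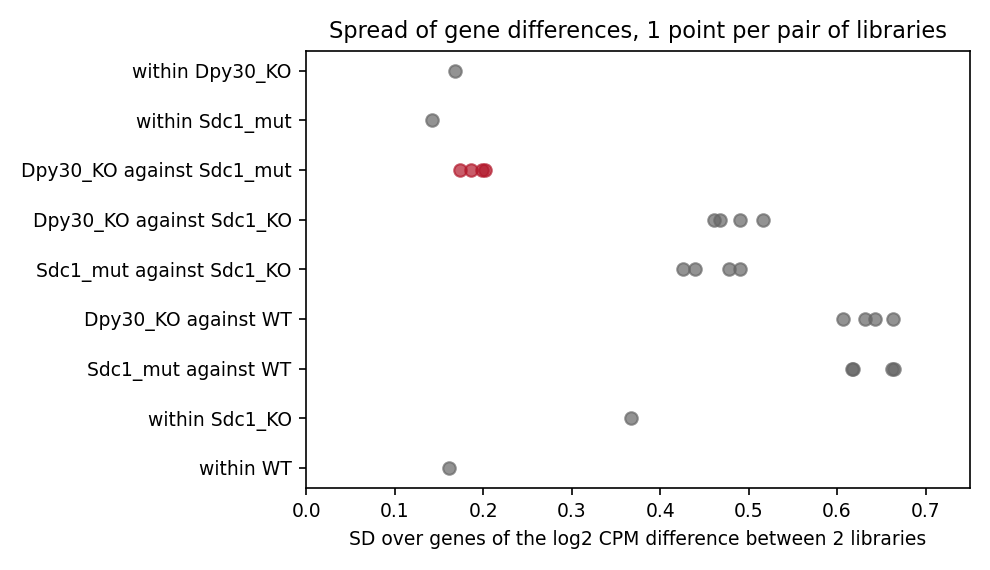
SD over 4970 nuclear genes of the log2 CPM difference between libraries (horizontal axis), 1 point per pair, in 9 kinds of pair (rows). The 4 pairs of Dpy30_KO against Sdc1_mut sit at 0.174 to 0.202, next to the pairs within Dpy30_KO, Sdc1_mut and WT. The pair within Sdc1_KO sits at 0.368, and the pairs of either allele against WT sit at 0.607 to 0.664.

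The counts of genes called against shared references were of like size. Dpy30_KO differed from WT at 3330 genes (52.4%), 1731 higher (27.2%) and 1599 lower (25.1%), and Sdc1_mut at 3342 genes (52.5%), 1773 higher (27.9%) and 1569 lower (24.7%). Dpy30_KO differed from Sdc1_KO at 1603 genes (25.2%), and Sdc1_mut at 1360 genes (21.4%). All used edgeR at an adjusted p under 0.05.

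Among the members of the Set1 complex, SDC1 aside, no gene was called between the alleles, and all 7 intervals lay within 1.5-fold. SET1, the methyltransferase itself, had 77.3 and 82.8 CPM in Dpy30_KO, against 83.7 and 82.6 CPM in Sdc1_mut and 58.8 and 56.7 CPM in WT. BRE2, whose product binds Sdc1, had 86.5 and 82.3 CPM in Dpy30_KO, against 90.1 and 81.7 CPM in Sdc1_mut and 51.8 and 55.9 CPM in WT. Both genes rose in both alleles relative to WT, SET1 by 0.47 ± 0.08 in Dpy30_KO and 0.53 ± 0.08 in Sdc1_mut on the log2 scale, and BRE2 by 0.65 ± 0.11 and 0.67 ± 0.11, with adjusted p of 0.00042 or less (edgeR). Between the alleles SET1 differed by -0.06 ± 0.08 (interval -0.23 to 0.12) and BRE2 by -0.02 ± 0.11 (interval -0.26 to 0.21).

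The other subunits differed between Dpy30_KO and Sdc1_mut by log2 values of -0.08 for SWD1 and -0.21 for SWD3, both WD40 proteins of the core, 0.08 for SWD2, the WD40 protein that the complex shares with the cleavage and polyadenylation factor, -0.09 for SPP1, the PHD finger subunit, and 0.02 for SHG1. JHD2, the demethylase, had 14.9 and 14.3 CPM in Dpy30_KO, against 13.0 and 14.2 CPM in Sdc1_mut and 6.27 and 4.36 CPM in WT, and 0 in both groups labelled with its deletion. JHD2 rose relative to WT by 1.46 ± 0.21 in Dpy30_KO and 1.35 ± 0.21 in Sdc1_mut (adjusted p = 0.00021 and 0.00035, edgeR), and its difference between the alleles was 0.10 ± 0.20.

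Genes that act beside the mark were also close. In the list of other JmjC proteins and of readers of the mark (the Set3 complex, the NuA3 subunits Yng1 and Nto1, Pho23 of Rpd3L), 16 of 16 intervals were within 1.5-fold and the median was 0.03 (-0.03 without Dpy30_KO replicate 1), against -0.01 over all genes. In the list of H2B ubiquitination (Bre1, Rad6), the Paf1 complex, Set2 and Dot1, 12 of 12 were within 1.5-fold and the median was -0.06. All 8 core histone genes tested were within 1.5-fold, with a median of -0.07, and all 8 fell relative to WT in each allele, with a median log2 fold change of -0.94 in Dpy30_KO and -0.83 in Sdc1_mut, where 25.1% and 24.7% of all genes fell. HHT2, which encodes histone H3, had 464 and 467 CPM in Dpy30_KO, against 518 and 533 CPM in Sdc1_mut and 918 and 962 CPM in WT.

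A set of responsive genes was taken from a contrast of libraries outside the comparison. It came from the same fit of all 12 libraries, so the scaling and the estimate of spread were shared with the 4 libraries compared. Sdc1_mut_Jhd2_KO differed from Jhd2_KO at 3716 genes (58.4%), 1066 of them by at least 2-fold (16.8%), and these 1066 genes share no library with Dpy30_KO or Sdc1_mut. None was called between the alleles by edgeR, and 142 had an unadjusted p under 0.05 (13.3%, against 6.87% over all genes). By DESeq2 and by limma-trend 1 was called, SDC1, whose own response lay at the 2-fold limit. For 566 of them (53.1%) the interval lay within 1.5-fold and for 899 (84.3%) within 2-fold. The 1045 nuclear ones had a median response of 1.41 log2 units without sign in the double mutant, and a median difference between the alleles of 0.16 without sign, against 0.10 in all other nuclear genes. Turned by the sign of the response, the median difference was -0.02 over all of them, -0.06 in the 738 genes higher in the double mutant and 0.03 in the 307 lower ones.

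Likeness was shown for different shares of responsive and other genes, and the shares are given with no test between them. At a mean of 5 CPM or more, 565 of 892 responsive nuclear genes (63.3%) had an interval within 1.5-fold, against 4210 of 4845 other nuclear genes (86.9%). The median mean level was 49.7 CPM in these 892 genes, against 62.3 CPM in these other genes. Of the 738 higher genes 335 were within 1.5-fold (45.4%), and of the 307 lower ones 231 were (75.2%). With the Sdc1_KO libraries left out, a setting chosen after the data were seen, 9 of 1079 responsive genes were called (0.834%, against 0.346% over all genes in that fit). They were BAR1, CWP1, FLO1, HXT1, INO1, OPI3, PIR3, STE2 and YNR065C.

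FIT3 and FIT2, cell wall mannoproteins that retain iron siderophores, were the clearest shared rises. FIT3 had 789 and 802 CPM in Dpy30_KO, against 663 and 678 CPM in Sdc1_mut and 38.8 and 36.8 CPM in WT. FIT2 had 217 and 197 CPM in Dpy30_KO, against 175 and 169 CPM in Sdc1_mut and 7.11 and 6.95 CPM in WT. Both rose relative to WT in both alleles, FIT3 by 4.39 ± 0.16 in Dpy30_KO and 4.15 ± 0.16 in Sdc1_mut, and FIT2 by 4.88 ± 0.18 and 4.61 ± 0.18 (adjusted p of 5.8e-09 or less, edgeR). The Dpy30_KO libraries lay above the Sdc1_mut libraries for both, by 0.25 ± 0.14 for FIT3 and 0.27 ± 0.15 for FIT2, which did not pass the test (adjusted p = 0.763 for each, edgeR). The alleles did not overlap in 44.8% of all genes tested.

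The shared falls came from less precisely measured genes. TIR1, a cell wall mannoprotein of the cold shock and anaerobic family, had 30.8 and 33.7 CPM in Dpy30_KO, against 24.7 and 26.1 CPM in Sdc1_mut and 373 and 382 CPM in WT. IZH4, a membrane protein linked to zinc homeostasis, had 11 and 7.69 CPM in Dpy30_KO, against 12.5 and 7.84 CPM in Sdc1_mut and 68.3 and 68.0 CPM in WT. ARO10, a decarboxylase of amino acid breakdown, had 21.7 and 31.4 CPM in Dpy30_KO, against 26.5 and 24.5 CPM in Sdc1_mut and 114 and 134 CPM in WT. TIR1 was slightly higher in both Dpy30_KO libraries, and for IZH4 and ARO10 the alleles overlapped. The differences of Dpy30_KO minus Sdc1_mut were 0.34 ± 0.44 for TIR1, -0.09 ± 0.34 for IZH4 and 0.05 ± 0.36 for ARO10, with intervals that all reach past 1.5-fold.

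IMD2, an IMP dehydrogenase of GTP synthesis, had 160 and 214 CPM in Dpy30_KO, against 97.7 and 168 CPM in Sdc1_mut and 677 and 711 CPM in WT. It fell relative to WT, with log2 fold changes of -1.89 ± 0.23 in Dpy30_KO and -2.38 ± 0.23 in Sdc1_mut (adjusted p = 2.6e-05 and 4.8e-06, edgeR). The alleles overlapped, and their difference was 0.49 ± 0.22 (adjusted p = 0.721). SPO74, a sporulation gene, had 16.1 and 16.1 CPM in Dpy30_KO, against 10.7 and 13.6 CPM in Sdc1_mut and 1.67 and 1.93 CPM in WT. YMR244W, a gene of unknown function, had 13.8 and 12.7 CPM in Dpy30_KO, against 14.1 and 12.3 CPM in Sdc1_mut and 1.86 and 1.68 CPM in WT.

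Of the genes with the largest rises in the double mutant, SPG4 and YER137W-A stayed below its level in both alleles. SPG4, a stationary phase gene, had 112 and 184 CPM in Sdc1_mut_Jhd2_KO, but 18.1 and 17.8 CPM in Dpy30_KO, against 21.5 and 14.1 CPM in Sdc1_mut and 13.6 and 13.7 CPM in WT. YER137W-A, of unknown function, had 26.3 and 33.5 CPM in Sdc1_mut_Jhd2_KO, but 3.64 and 2.83 CPM in Dpy30_KO, against 5.20 and 5.46 CPM in Sdc1_mut and 2.13 and 3.22 CPM in WT. CHA1 and YIR042C were among the largest falls of the double mutant against Jhd2_KO. CHA1, a serine and threonine deaminase, had 35.3 and 37.4 CPM in Dpy30_KO, against 30.5 and 30.0 CPM in Sdc1_mut and 89.6 and 98.2 CPM in WT. Both alleles thus lay below WT for CHA1. YIR042C, of unknown function, had 2.0 and 11.5 CPM in Dpy30_KO, against 8.18 and 12.5 CPM in Sdc1_mut, so that 1 Dpy30_KO library was far below the other. None of these 4 genes was called between the alleles.

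**Figure D4:**
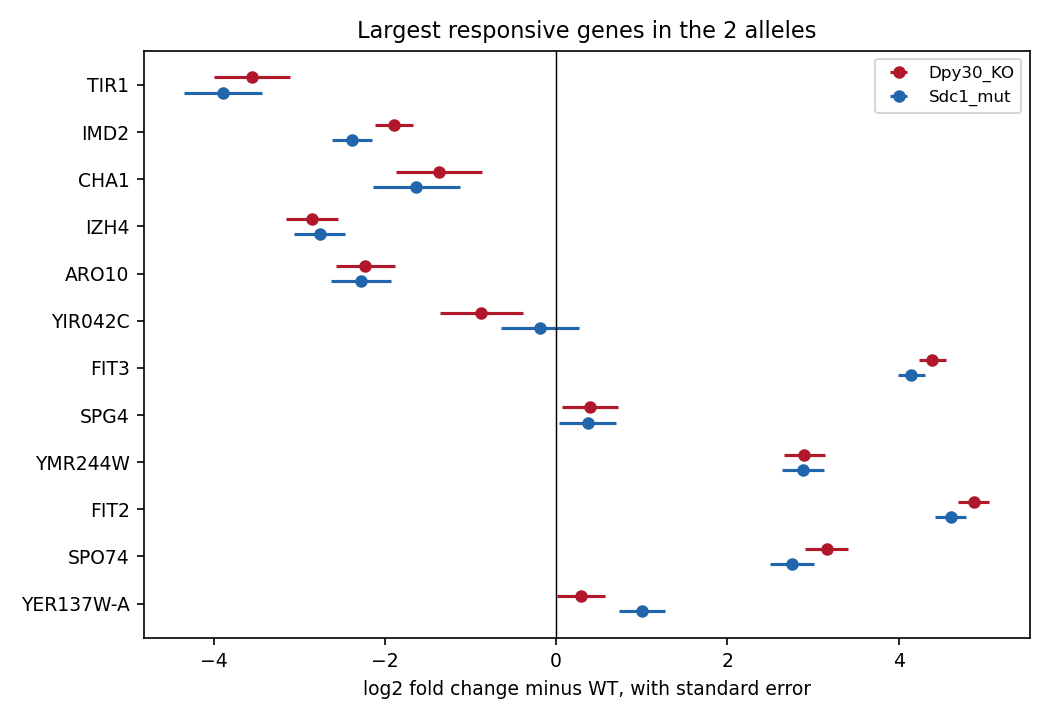
Log2 fold change relative to WT (horizontal axis) of the 6 genes with the largest falls and the 6 with the largest rises in Sdc1_mut_Jhd2_KO against Jhd2_KO (rows), for Dpy30_KO (red) and Sdc1_mut (blue), with standard errors as bars. Both alleles lie on the same side of 0 for all 12 genes, and the WT libraries are shared by the red and the blue points. For YER137W-A the Dpy30_KO libraries overlap WT, and SPG4 lies near WT in both alleles, so the side says little there.

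Gene lists described the pathways. Over 58 lists, 1455 distinct genes were tested, and the 1 called member was SDC1. Of these members 1019 (70.0%) had an interval within 1.5-fold, against 75.2% over all genes. In 37 lists the median log2 difference was under 0.1 in size. In 7 lists every tested member lay within 1.5-fold, among them the 33 proteasome genes (median -0.00), 24 translation factors (-0.09), 15 nuclear ATP synthase genes (-0.03) and 11 genes of the galactose pathway (0.04).

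Lists far from WT in both alleles were close between them. Of 24 nuclear genes of the respiratory chain and cytochromes, 22 fell in each allele, with medians of -1.42 in Dpy30_KO and -1.39 in Sdc1_mut. Of all genes 25.1% fell in Dpy30_KO and 24.7% in Sdc1_mut. The difference between the alleles was within 1.5-fold for 22 of the 24. COR1, a core subunit of the cytochrome bc1 complex, had 372 and 347 CPM in Dpy30_KO, against 359 and 373 CPM in Sdc1_mut and 1483 and 1236 CPM in WT. All 15 nuclear ATP synthase genes fell in each allele, with medians of -1.15 in Dpy30_KO and -1.03 in Sdc1_mut. ATP1, the alpha subunit of the enzyme, had 1525 and 1326 CPM in Dpy30_KO, against 1487 and 1432 CPM in Sdc1_mut and 3413 and 3093 CPM in WT. For both genes the alleles overlapped and WT was far above. These falls go along with the loss of mitochondrial RNA in both alleles.

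In the iron regulon, which Aft1 and Aft2 induce when iron is short, 21 of 31 genes rose and 4 fell in each allele relative to WT, with medians of 1.03 in Dpy30_KO and 0.99 in Sdc1_mut. Over all genes 27.2% rose and 25.1% fell in Dpy30_KO, and 27.9% rose and 24.7% fell in Sdc1_mut. Between the alleles 26 of the 31 were within 1.5-fold, and the median was -0.02, with the other sign (0.04) without Dpy30_KO replicate 1. Of 50 middle and late sporulation genes, 38 rose and 3 fell in Dpy30_KO, and 37 rose and 2 fell in Sdc1_mut, with medians of 1.13 and 1.10. Their median between the alleles was 0.12, but 0.06 without Dpy30_KO replicate 1 and 0.20 without Sdc1_mut replicate 1.

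A few lists lay to one side of 0 between the alleles, by small amounts that no member carried past the test. The genes of ribosome production were the largest such group. Of 44 small subunit biogenesis genes 40 lay below 0 in Dpy30_KO minus Sdc1_mut, with a median of -0.23, and of 52 large subunit biogenesis genes 51 lay below 0, with a median of -0.24. Of 21 subunits of RNA polymerases I and III, which transcribe ribosomal and transfer RNA genes, 16 lay below 0, with a median of -0.23. Over all genes 53.3% lay below 0. At an unadjusted p under 0.05 the counts were 17, 16 and 8 members lower and 0 higher, against 3.95% lower over all genes. Intervals lay within 1.5-fold for 26, 28 and 14 of them.

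These lists were up in both alleles relative to WT, with the higher medians in Sdc1_mut, where 27.2% of all genes rose in Dpy30_KO and 27.9% in Sdc1_mut. In the small subunit list 42 genes rose in Dpy30_KO and 43 in Sdc1_mut, with medians of 1.08 and 1.28. In the large subunit list 49 rose in Dpy30_KO and 51 in Sdc1_mut, with medians of 1.14 and 1.39, and in the polymerase list all 21 rose in each, with medians of 0.77 and 1.04. NOP56, a core protein of the box C/D snoRNPs, had 1044 and 859 CPM in Dpy30_KO, against 1144 and 1161 CPM in Sdc1_mut and 583 and 610 CPM in WT. NOP7, of the complex that processes the large subunit precursor, had 1198 and 976 CPM in Dpy30_KO, against 1407 and 1352 CPM in Sdc1_mut and 616 and 810 CPM in WT. RPA135, the second largest subunit of polymerase I, had 175 and 231 CPM in Dpy30_KO, against 253 and 268 CPM in Sdc1_mut and 127 and 120 CPM in WT. In all 3 genes the alleles did not overlap, as in 44.8% of all genes tested, and the 2 Dpy30_KO libraries differed more from each other than the 2 Sdc1_mut libraries did. Their differences were -0.28 ± 0.12, -0.34 ± 0.15 and -0.36 ± 0.14, with adjusted p of 0.706 to 0.721 (edgeR).

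By library, the median deviation of the small subunit list from the mean of the 4 libraries was -0.20 and -0.05 in Dpy30_KO, against 0.08 and 0.16 in Sdc1_mut. For the large subunit list it was -0.12 and -0.13 in Dpy30_KO, against 0.11 and 0.14 in Sdc1_mut. Ribosomal protein genes lay on the same side by less, with medians of -0.10 for the 56 genes of the small subunit and -0.10 for the 78 of the large one (-0.06 without Dpy30_KO replicate 1). RET1, the second largest subunit of polymerase III, lay level, with 228 and 252 CPM in Dpy30_KO, against 230 and 249 CPM in Sdc1_mut.

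Ribosome biogenesis genes are known for a pair of upstream elements, PAC and RRPE, bound by Dot6, Tod6 and Stb3. The upstream windows of NOP56, NOP7 and EBP2, another nucleolar protein of large subunit assembly, are shown as examples of the list, from 300 to 101 bases before the start codon, in R64. Capitals mark the PAC core, searched as GATGAG or CTCATC, and the RRPE core, searched as AAATTTT or AAAATTT, with both strands searched and overlapping matches counted. They lie at chrXII:545797-545996 (plus strand) for NOP56, chrVII:695117-695316 (plus strand) for NOP7 and chrXI:125459-125658 (plus strand) for EBP2.
NOP56: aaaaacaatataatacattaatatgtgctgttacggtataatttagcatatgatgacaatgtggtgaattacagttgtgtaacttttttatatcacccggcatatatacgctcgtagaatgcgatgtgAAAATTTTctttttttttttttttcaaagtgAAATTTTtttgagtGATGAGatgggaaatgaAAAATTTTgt
NOP7: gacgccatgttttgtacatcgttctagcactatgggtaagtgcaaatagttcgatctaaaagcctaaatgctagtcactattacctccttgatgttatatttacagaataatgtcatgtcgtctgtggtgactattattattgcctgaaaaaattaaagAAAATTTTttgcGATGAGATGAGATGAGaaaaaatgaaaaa
EBP2: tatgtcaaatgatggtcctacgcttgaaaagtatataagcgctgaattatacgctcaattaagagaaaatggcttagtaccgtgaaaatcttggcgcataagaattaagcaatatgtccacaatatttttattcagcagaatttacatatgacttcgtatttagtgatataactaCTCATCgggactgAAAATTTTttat
The PAC core was present in 27 of 44 windows of the small subunit list (61.4%), 36 of 52 of the large subunit list (69.2%) and 13 of 21 of the polymerase list (61.9%), against 13.3% of all 5759 such windows. The RRPE core was present in 35 (79.5%), 46 (88.5%) and 16 (76.2%) of them, against 19.3% of all. A match describes letters in a window and is no evidence of binding.

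The 7 genes specific to MATa cells had the lowest median, -0.31, with 6 below 0 and 1 within 1.5-fold. They are repressed in other cell types and encode the parts by which a cells secrete a-factor and answer alpha-factor. BAR1, the protease that degrades alpha-factor, had 35.9 and 38.3 CPM in Dpy30_KO, against 56.8 and 63.5 CPM in Sdc1_mut and 111 and 109 CPM in WT. STE2, the alpha-factor receptor, had 48.0 and 56.8 CPM in Dpy30_KO, against 70.2 and 81.5 CPM in Sdc1_mut and 136 and 146 CPM in WT. STE6, the a-factor exporter, had 61.6 and 66.4 CPM in Dpy30_KO, against 79.3 and 86.1 CPM in Sdc1_mut and 170 and 156 CPM in WT. In each of these genes every Dpy30_KO library was below every Sdc1_mut library, and both alleles were below WT. The alleles did not overlap in 44.8% of all genes tested.

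Of the members, 6 fell relative to WT in each allele, with medians over the list of -1.43 in Dpy30_KO and -0.94 in Sdc1_mut, against 25.1% and 24.7% of all genes that fell. The differences between the alleles were -0.70 ± 0.22 for BAR1, -0.54 ± 0.15 for STE2 and -0.37 ± 0.10 for STE6, each with an adjusted p of 0.699 (edgeR). With the Sdc1_KO libraries left out, a setting chosen after the data were seen, BAR1 (adjusted p = 0.00522) and STE2 (adjusted p = 0.0328) were called (edgeR). AGA2, an agglutinin subunit, and ASG7 showed no such gap, with 16.5 and 11.3 CPM for AGA2 in Dpy30_KO, against 13.7 and 16.2 CPM in Sdc1_mut, and 10.8 and 11.8 CPM for ASG7 in Dpy30_KO, against 11.9 and 9.67 CPM in Sdc1_mut.

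On the other side of 0 lay genes of the cell wall. Of 31 cell wall integrity and surface genes 27 lay above 0 in Dpy30_KO minus Sdc1_mut, with a median of 0.23, where 46.5% of all genes did. At an unadjusted p under 0.05, 9 were higher and 0 lower, against 2.92% higher over all genes, and 16 were within 1.5-fold. CWP1, a wall mannoprotein, had 495 and 548 CPM in Dpy30_KO, against 306 and 376 CPM in Sdc1_mut and 463 and 479 CPM in WT. PIR3, an O-glycosylated wall protein, had 1385 and 1465 CPM in Dpy30_KO, against 984 and 1078 CPM in Sdc1_mut and 445 and 435 CPM in WT. FLO1, a flocculin whose sequence nearly matches that of FLO9 and whose counts are uncertain for that reason, had 144 and 133 CPM in Dpy30_KO, against 94.9 and 86.2 CPM in Sdc1_mut and 33.1 and 29.6 CPM in WT. In these 3 genes the Dpy30_KO libraries lay above the Sdc1_mut libraries, and the alleles did not overlap in 44.8% of all genes tested. The differences were 0.61 ± 0.34 for CWP1, 0.47 ± 0.17 for PIR3 and 0.61 ± 0.14 for FLO1, with adjusted p of 0.699 to 0.763 over all 12 libraries (edgeR). Without the Sdc1_KO libraries, a setting chosen after the data were seen, the adjusted p were 0.00569, 0.0328 and 0.0217 (edgeR). The most abundant members had log2 differences of 0.28 ± 0.22 for SED1 and -0.14 ± 0.22 for CCW12, both structural wall proteins.

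Lists of carbon and nitrogen supply lay on the same side by like amounts. For gluconeogenesis, the glyoxylate cycle and acetate use the median was 0.20, with 19 of 23 genes above 0, but its libraries were uneven, with median deviations of 0.07 and 0.16 in Dpy30_KO, against 0.00 and -0.23 in Sdc1_mut, and without Sdc1_mut replicate 1 or 2 the median was 0.37 or 0.13. For peroxisomes and fatty acid oxidation it was 0.19, with 18 of 22 above 0, and for genes under nitrogen catabolite repression 0.15, with 21 of 27 above 0. GAP1, the general amino acid permease, had 114 and 156 CPM in Dpy30_KO, against 82.2 and 83.8 CPM in Sdc1_mut and 46.0 and 43.5 CPM in WT. IDP2, the cytosolic isocitrate dehydrogenase, had 40.4 and 37.6 CPM in Dpy30_KO, against 26.8 and 26.5 CPM in Sdc1_mut and 16.8 and 15.5 CPM in WT. Both lay higher in Dpy30_KO in every library pair, and the alleles did not overlap in 44.8% of all genes tested. Both were called with the Sdc1_KO libraries left out (adjusted p = 0.00807 and 0.0368, edgeR), a setting chosen after the data were seen. They were named for that call. Differences ran from -0.18 to 0.61 in the gluconeogenesis list and from -0.18 to 0.70 in the nitrogen list. ACS2, among the most abundant of the gluconeogenesis list, had -0.01, with the other sign in 5 of 17 alternatives.

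Methionine and sulfur assimilation genes lay below 0, with a median of -0.21 and 25 of 34 members, but their libraries were uneven too. Their median deviations were -0.19 and -0.00 in Dpy30_KO, against 0.06 and 0.12 in Sdc1_mut, and without Dpy30_KO replicate 1 the median difference was -0.10. MET17, the sulfhydrylase that makes homocysteine, had 1199 and 1345 CPM in Dpy30_KO, against 1529 and 1574 CPM in Sdc1_mut and 1940 and 1893 CPM in WT, a difference of -0.29 ± 0.17. Subtelomeric families lay above 0, with a median of 0.21 for 28 genes of the AAD, IMA, MAL and FDH families and 0.21 for 9 COS genes, but 13 and 4 of these genes nearly match another or overlap one, and their counts are uncertain. The median was 0.11 for the AAD, IMA, MAL and FDH families without the uncertain genes, and 0.08 for the COS genes without Dpy30_KO replicate 1.

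**Figure D5:**
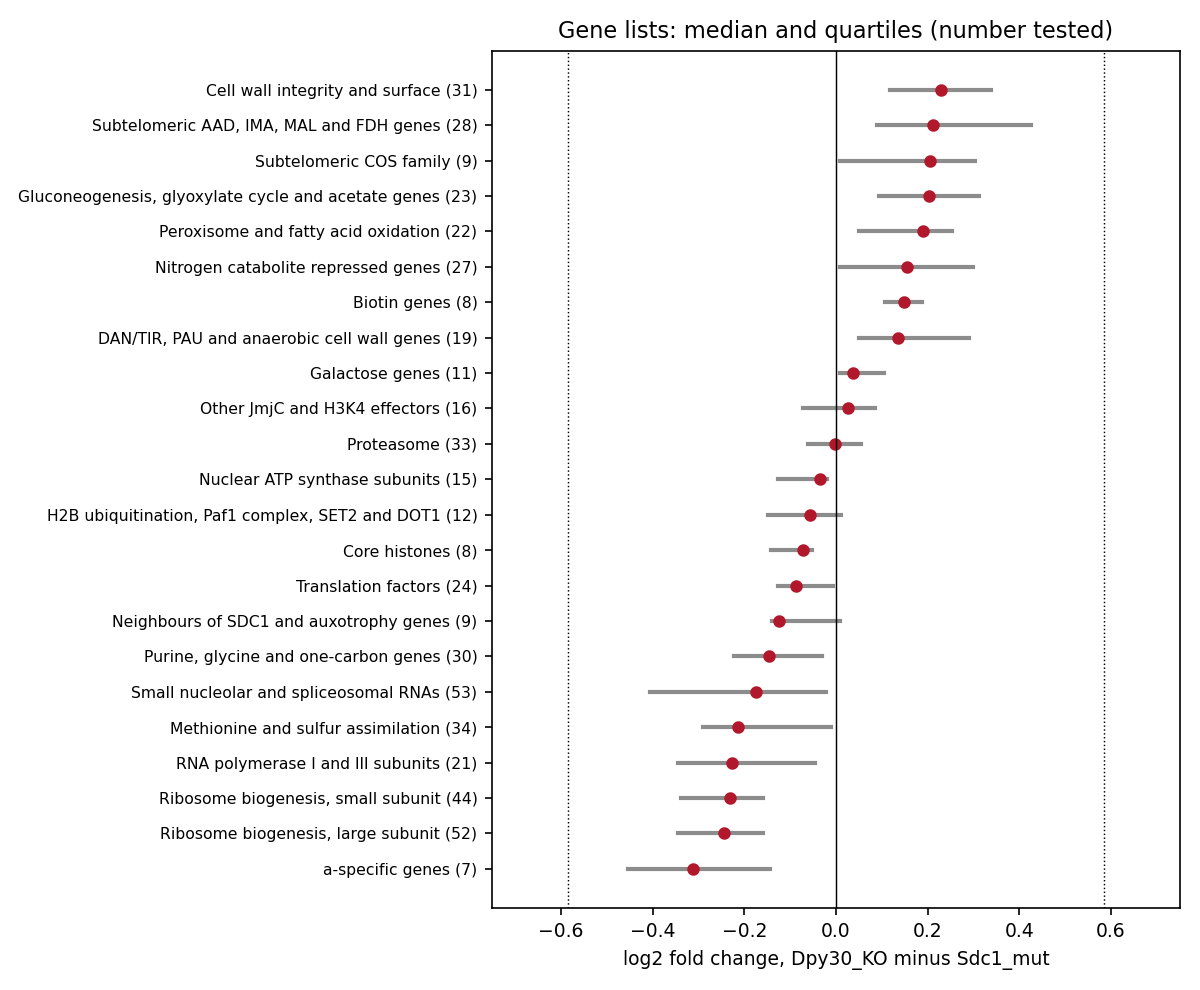
Median (point) and quartiles (line) of the log2 fold change of Dpy30_KO minus Sdc1_mut over the members of gene lists (rows, number tested in brackets): the 8 lists with the highest medians, the 8 with the lowest, and the 7 whose members all had intervals within 1.5-fold, marked by the dotted lines. The medians run from -0.31 for a-specific genes to 0.23 for the cell wall list, and every quartile lies inside 1.5-fold.

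Genes of inositol and phospholipid synthesis lay above 0 by less, with 18 of 23 above 0 (46.5% of all genes) and a median of 0.09. Lists with larger medians that are not described here included 8 biotin genes (0.15) and 19 DAN/TIR, PAU and anaerobic cell wall genes (0.14). Another was the list of 30 purine, glycine and one-carbon genes (-0.14). Of the inositol list, INO1 had the largest difference. INO1, which makes inositol phosphate, had 80.3 and 78.1 CPM in Dpy30_KO, against 52.2 and 52.3 CPM in Sdc1_mut, 176 and 163 CPM in Sdc1_mut_Jhd2_KO and 19.0 and 20.9 CPM in WT. ITR1, the inositol transporter, had 1442 and 1419 CPM in Dpy30_KO, against 1143 and 1104 CPM in Sdc1_mut and 427 and 441 CPM in WT. OPI3, a methyltransferase of phosphatidylcholine synthesis, had 463 and 475 CPM in Dpy30_KO, against 363 and 350 CPM in Sdc1_mut and 195 and 191 CPM in WT. For each gene both Dpy30_KO libraries were above both Sdc1_mut libraries, and all 4 were above WT. The alleles did not overlap in 44.8% of all genes tested. All 3 genes rose relative to WT in both alleles, INO1 by 1.99 ± 0.20 in Dpy30_KO and 1.39 ± 0.20 in Sdc1_mut, ITR1 by 1.72 ± 0.12 and 1.37 ± 0.12, and OPI3 by 1.28 ± 0.10 and 0.88 ± 0.10 (adjusted p of 0.00012 or less, edgeR). The differences between the alleles were 0.60 ± 0.20, 0.35 ± 0.11 and 0.40 ± 0.10, each with an adjusted p of 0.699. Without the Sdc1_KO libraries, a setting chosen after the data were seen, INO1 (adjusted p = 0.00522) and OPI3 (adjusted p = 0.0328) were called and ITR1 (adjusted p = 0.106) was not (edgeR).

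These genes are known for the element UASINO, which the activators Ino2 and Ino4 bind. Their upstream windows follow, in the same span as above, each read in the direction of the gene, with the UASINO core, searched as CATGTG or CACATG, in capitals. They lie at chrX:136034-136233 (minus strand) for INO1, chrIV:1445568-1445767 (minus strand) for ITR1 and chrX:573036-573235 (minus strand) for OPI3.
INO1: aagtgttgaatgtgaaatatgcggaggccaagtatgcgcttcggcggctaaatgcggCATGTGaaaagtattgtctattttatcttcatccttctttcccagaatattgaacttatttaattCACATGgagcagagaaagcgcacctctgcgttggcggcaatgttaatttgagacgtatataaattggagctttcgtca
ITR1: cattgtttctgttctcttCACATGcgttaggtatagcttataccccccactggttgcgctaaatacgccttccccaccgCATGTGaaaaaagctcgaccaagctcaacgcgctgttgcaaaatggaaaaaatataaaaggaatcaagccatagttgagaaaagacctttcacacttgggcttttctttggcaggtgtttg
OPI3: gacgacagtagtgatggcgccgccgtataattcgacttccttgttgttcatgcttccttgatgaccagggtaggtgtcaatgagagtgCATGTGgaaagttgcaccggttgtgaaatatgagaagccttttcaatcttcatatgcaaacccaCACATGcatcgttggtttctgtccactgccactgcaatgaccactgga
Each window holds 2 matches, and 15 of 23 windows of the list held at least 1 (65.2%), against 5.68% of all windows.

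The count of genes called between the alleles was largest with the replicate number as a block in the 4 libraries alone, at 792. It also depended on whether the Sdc1_KO libraries, with their larger spread, were in the fit. The 22 genes called without them, in a setting chosen after the data were seen, were 12 higher and 10 lower in Dpy30_KO. The 17 called in the 4 libraries alone, with no block, were 12 higher and 5 lower. The 14 called in the 6 libraries low in mitochondrial RNA were 9 higher and 5 lower. Called both without the Sdc1_KO libraries and in the 4 libraries alone were 13 genes, 9 higher and 4 lower: BAR1, CWP1, FLO1, HXT1, INO1, PDR15, PIR3, RPL37B, RRP8, SDC1, TLG1, TSA1 and YNR065C. Those not yet described follow, and all but SDC1 and TLG1 were singled out after their values were seen. SDC1 aside, their fold changes lay between 1.36 and 1.62 either way.

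TSA1, the main cytosolic peroxiredoxin, had 1143 and 1170 CPM in Dpy30_KO, against 802 and 812 CPM in Sdc1_mut and 579 and 582 CPM in WT. HXT1, the low-affinity hexose transporter, had 38.9 and 35.8 CPM in Dpy30_KO, against 59.0 and 58.5 CPM in Sdc1_mut and 21.6 and 24.0 CPM in WT. Both alleles lay above WT for both genes, TSA1 more in Dpy30_KO and HXT1 more in Sdc1_mut. TSA1 rose relative to WT by 0.99 ± 0.10 in Dpy30_KO and 0.48 ± 0.10 in Sdc1_mut, and HXT1 by 0.71 ± 0.14 and 1.36 ± 0.13 (adjusted p of 0.0016 or less, edgeR). Between the alleles TSA1 differed by 0.52 ± 0.10 and HXT1 by -0.65 ± 0.13, with adjusted p of 0.292 and 0.434 over all 12 libraries (edgeR). The adjusted p were 0.00522 and 0.00543 without the Sdc1_KO libraries, the setting chosen after the data were seen.

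PDR15, a multidrug ABC transporter, had 823 and 769 CPM in Dpy30_KO, against 558 and 596 CPM in Sdc1_mut and 568 and 475 CPM in WT. RPL37B, a protein of the large ribosomal subunit, had 677 and 750 CPM in Dpy30_KO, against 511 and 535 CPM in Sdc1_mut and 263 and 318 CPM in WT. YNR065C, a sortilin-related gene, had 304 and 314 CPM in Dpy30_KO, against 202 and 204 CPM in Sdc1_mut and 43.7 and 42.1 CPM in WT. These 3 genes were higher in Dpy30_KO in every pair of libraries. They were picked by their calls in alternative fits, and the alleles did not overlap in 44.8% of all genes tested. RRP8, which methylates the large subunit ribosomal RNA, was lower, with 147 and 134 CPM in Dpy30_KO, against 204 and 199 CPM in Sdc1_mut and 107 and 133 CPM in WT.

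The remaining genes with intervals wholly beyond 1.5-fold in the fit of all libraries were near the limit of counting. YLL066C, a subtelomeric gene whose sequence nearly matches YML133C, had 0 and 0 fragments in Dpy30_KO, against 11 and 18 fragments in Sdc1_mut, at least 4.76-fold lower with a floor of 3 fragments per library (adjusted p = 0.118, edgeR). YFR056C had 0.214 and 0.0884 CPM in Dpy30_KO, against 1.39 and 1.19 CPM in Sdc1_mut and 1.56 and 1.13 CPM in WT (adjusted p = 0.699). IRC7, a beta-lyase next to it by systematic name (YFR055W), had 43.0 and 25 CPM in Dpy30_KO, against 69.3 and 62.2 CPM in Sdc1_mut and 64.5 and 65.7 CPM in WT. Both neighbours were below WT in Dpy30_KO and near it in Sdc1_mut. The strand setting is not given, so they may share reads and are not taken as separate observations. COS8, a subtelomeric membrane protein gene, had 16.6 and 12.1 CPM in Dpy30_KO, against 15.3 and 42.6 CPM in Sdc1_mut, so that 1 Sdc1_mut library made the difference.

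No chromosome was shifted as a whole. The medians of the 16 nuclear chromosomes in Dpy30_KO minus Sdc1_mut ran from -0.03 for VIII to 0.03 for IX. Of the 21 mitochondrially encoded identifiers tested 13 had no fragment in any of the 4 libraries, and none was called.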

How the data were processed

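The deposited table holds fragment counts and FPKM per identifier and library, made by the authors with Cufflinks after TopHat alignment to sacCer3 and demultiplexing with bcl2fastq 2.17.1.14, per the submitters' processing notes. The strand setting, the treatment of reads with several matches and the annotation are not given in the sources used here, so a gene and its antisense partner may share reads. Of the deposited fragment counts 97.8% were whole numbers, and 183 identifiers had a fractional value; the deposited values were treated as estimated counts and rounded. The FPKM values, normalized by the authors, served as an alternative, as log2(FPKM + 1) in limma. The 14 identifiers the authors marked as having too much data were left out.

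Counts of all 12 libraries were fitted with 1 mean per group in edgeR 4.0.16 (R 4.3.3, filterByExpr, TMM scaling, quasi-likelihood test, Benjamini-Hochberg over 6361 genes, called at an adjusted p under 0.05). The common biological coefficient of variation was 10.2%. Intervals are 95%, from the standard error and the total degrees of freedom, and cover the spread between 2 libraries a group. Alternatives used DESeq2 1.42.0, limma 3.58.1, other scaling, filters and sets of libraries, and leaving out each library. Scripts were tested on simulated data. Genes came from RefSeq R64: 6158 of 7112 identifiers matched. A gene was called uncertain with a copy of at least 95% identity over 50% of its length (blastn 2.17.0) or an overlap of at least 10% (432 genes).

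The members, the gene lists and the tests were chosen with earlier results of these data known. Genes named are SDC1, its neighbours, JHD2, subunits of the Set1 complex, the most abundant members of lists and, for Sdc1_mut_Jhd2_KO against Jhd2_KO, the 6 that rose most and the 6 that fell most. The genes called in an alternative, and ACS1, AGA2, ASG7, COS8, IRC7, PCK1, SNR19 and YFR056C, were named after their values were seen.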

Additional observations from a re-analysis of the deposited data

Results flagged for a closer look

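SDC1 was singled out because the alleles moved it in opposite directions relative to WT and the difference between them passed the test. Both Dpy30_KO libraries lay below both WT libraries, and both Sdc1_mut libraries lay above them. The log2 fold change of Dpy30_KO minus Sdc1_mut was -1.43 (adjusted p = 0.000466, edgeR's quasi-likelihood test with Benjamini-Hochberg adjustment), lower in Dpy30_KO in 4 of 4 pairs of libraries.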

How the results depend on the processing

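SDC1 kept its direction and its call in every alternative run, with log2 fold changes of -1.44 to -1.39. The count of genes called, 1 in the main setting, was 3 by DESeq2 (SDC1, TSA1 and TLG1), 2 by limma-trend (SDC1 and YLL066C), 17 in the 4 libraries alone, and 1 to 2 leaving out each library in turn, the second being YEL073C, called without Dpy30_KO replicate 1. In 2 alternatives chosen after seeing the data it was 22 without the Sdc1_KO libraries and 14 in the 6 libraries low in mitochondrial RNA. With the replicate number as a block, 1 gene of 6361 was called in all 12 libraries. In the 4 libraries alone the block gave 792 of 6241 (394 higher and 398 lower), in a fit that leaves very few degrees of freedom. The labels do not say that a number marks a shared culture or day, so the libraries were not treated as pairs. Same-numbered libraries deviated together, with a correlation over 0.1, in 4 of 15 pairs of groups, and Dpy30_KO with Sdc1_mut had the highest, 0.151. Correlations of like size had the other sign, -0.133 for Sdc1_KO with Dpy30_KO and -0.113 for Sdc1_mut with Sdc1_mut_Jhd2_KO. The SD of the log2 difference was 0.174 and 0.187 between same-numbered libraries of Dpy30_KO and Sdc1_mut, against 0.198 and 0.202 between the others. These values come from the data and not from the design, and do not settle if a number marks a pair. Calls of at least 2-fold numbered 2 by limma-trend, 7 with the block in 4 libraries, 2 without the Sdc1_KO libraries and 1 to 2 leaving out each library.

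Among responsive genes, 0 called in the main setting, the count was 1, SDC1, under RLE scaling, DESeq2, limma-trend, the block in 12 libraries, the FPKM values, without unmatched identifiers, without uncertain genes and with no fold threshold. It was 9 without the Sdc1_KO libraries and 0 to 1 leaving out each library. The median signed difference of these genes ran from -0.0302 to 0 leaving out each library. The count of intervals within 1.5-fold, 4784, ran from 3945 to 5383. The lists described as lying to one side of 0 kept that side in all 17 alternatives. Medians near 0 took the other sign in at least 1 alternative for 18 of 58 lists, each with a median under 0.1 in size. So did the differences of 57 of 209 genes looked at singly, none of them called between the alleles in the fit of all 12 libraries. These gene differences were up to 0.68 in size, for YIR042C. The cause of these changes was not tested. With 2 libraries a group and few fragments, likeness within 1.5-fold could mostly not be shown for genes under 5 CPM. Among such genes YLL066C, at 0 and 0 fragments in Dpy30_KO, against 11 and 18 in Sdc1_mut, was called in 3 alternatives.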

Other observations

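The list of small nucleolar and spliceosomal RNAs had a median log2 difference of -0.17 over 53 tested, with 40 below 0 in Dpy30_KO minus Sdc1_mut. SNR19, the U1 RNA of the spliceosome, had 26.4 and 21.4 CPM in Dpy30_KO, against 40.9 and 33.5 CPM in Sdc1_mut and 37.4 and 40.6 CPM in WT, a difference of -0.63 ± 0.18 that did not pass the test (adjusted p = 0.699, edgeR). It was lower in both Dpy30_KO libraries than in every other library just given, and the alleles did not overlap in 44.8% of all genes tested. SNR19 was named after its values were seen, and the list ran from -1.11 to 1.40. Of its most abundant members, SCR1 and TLC1, which are neither small nucleolar nor spliceosomal RNAs, differed by 0.005 and -0.05, and LSR1 lay below 0. Only 8 of the 53 had an interval within 1.5-fold.

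PCK1, the first enzyme of gluconeogenesis, rose in both alleles relative to WT. It had 211 and 175 CPM in Dpy30_KO, against 177 and 151 CPM in Sdc1_mut and 21.1 and 18.5 CPM in WT, so that the alleles overlapped. ACS1, an acetyl-CoA synthetase of the same list, had 24.7 and 30.2 CPM in Dpy30_KO, against 33.4 and 22.7 CPM in Sdc1_mut, but 120 and 172 CPM in Sdc1_mut_Jhd2_KO, against 20.6 and 24.5 CPM in Jhd2_KO. These genes were chosen after their values were seen.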
